A study of Mus musculus with 20 samples.

Results

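The genes described here are 10 transcripts long used to mark neutrophils: S100a8, S100a9, Mmp8, Mmp9, Ngp, Retnlg, Cxcr2, Csf3r, Fpr1 and Fpr2. They were picked by gene symbol, 10 of the 37681 genes listed in each count table, and each symbol matched a single row. The comparison asked whether the livers of mice given IL-1β held more of these transcripts than those of controls, as a sign that neutrophils had entered the organ. The mice were 10 males aged 12 weeks, C57/B6J by the vendor's name and C57/BL6 as the strain, with no genetic change named. IL-1β, a cytokine that starts inflammatory signaling, was given at 20 µg/kg to 5 mice (ILB_9577, ILB_9578, ILB_9579, ILB_9582 and ILB_9583), and 5 mice (UNT_9574, UNT_9575, UNT_9576, UNT_9580 and UNT_9584) received saline and are called untreated. Whole liver was taken 4 hours later, so each value pools every cell type of the organ and the blood in it. Liver RNA of each mouse was made into 1 Illumina and 1 Ion Torrent library, and reads were aligned in 3 ways (GSNAP, STAR, and STAR with Bowtie2 for the reads STAR left), which gives 6 tables of counts with 10 libraries each. The replicates are the 5 mice of a group, and the 6 tables are views of the same 10 mice, not further replicates.

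Neutrophils are short-lived phagocytes made in the bone marrow and released into the blood, and a liver at rest holds few of them. When tissue is inflamed, the endothelium displays adhesion molecules, chemokines that bind CXCR2 draw neutrophils out of the vessels, and CSF3, the ligand of CSF3R, drives their production and release. Mature neutrophils are loaded with the calcium-binding proteins S100A8 and S100A9, which pair as calprotectin, and with granules that hold proteases such as MMP8 and MMP9.

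An Illumina library held 10568530 to 12008799 counted reads, and an Ion Torrent library 12199528 to 16439683. A count is called a read here, although an Illumina count may be a read pair, which the tables do not state. The libraries of 1 mouse stood apart. The deviations of a mouse from its group mean, taken across genes in both platforms, correlated at 0.547 to 0.721 in 9 mice and at 0.199 to 0.248 in the untreated mouse UNT_9584, although each Ion Torrent library resembled its own mouse's Illumina library best. Leaving out mouse UNT_9584 left 9 of the 10 genes higher after IL-1β in every table, as with it.

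Of the 10 genes, 9 rose after IL-1β in each of the 6 tables and none fell, by edgeR's quasi-likelihood test with a Benjamini-Hochberg adjusted p below 0.05. The exception was Fpr1. Over all 15578 genes tested, the share called higher was 23.7%, 22.7% and 22.9% for Illumina (GSNAP, STAR, STAR + Bowtie2) and 22.5%, 20.3% and 22.8% for Ion Torrent. An exact two-sided rank-sum test at q < 0.05 called the 9 genes other than Fpr1 as well, in all 6 tables, where 14.5%, 14%, 15%, 13.5%, 12.1% and 14% of all genes were called higher. The median log2 fold change of the 10 genes ran from 4.71 to 5.46 over the tables, and that of all genes tested from -0.014 to 0.00. With Ngp set to its lower bound where untreated mice had no read, the median of the 10 was 4.44 to 5.46. All 10 genes passed the minimum of 5 reads in 5 of 10 libraries, but Mmp8, Cxcr2, Ngp and Retnlg passed it only through the treated libraries. These 4 thus had to differ to be tested in a table at all. Of the other 6 genes, 5 were called higher and Fpr1 was not. In bulk liver, more neutrophils and more of these transcripts per cell cannot be told apart.

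**Figure D1:**
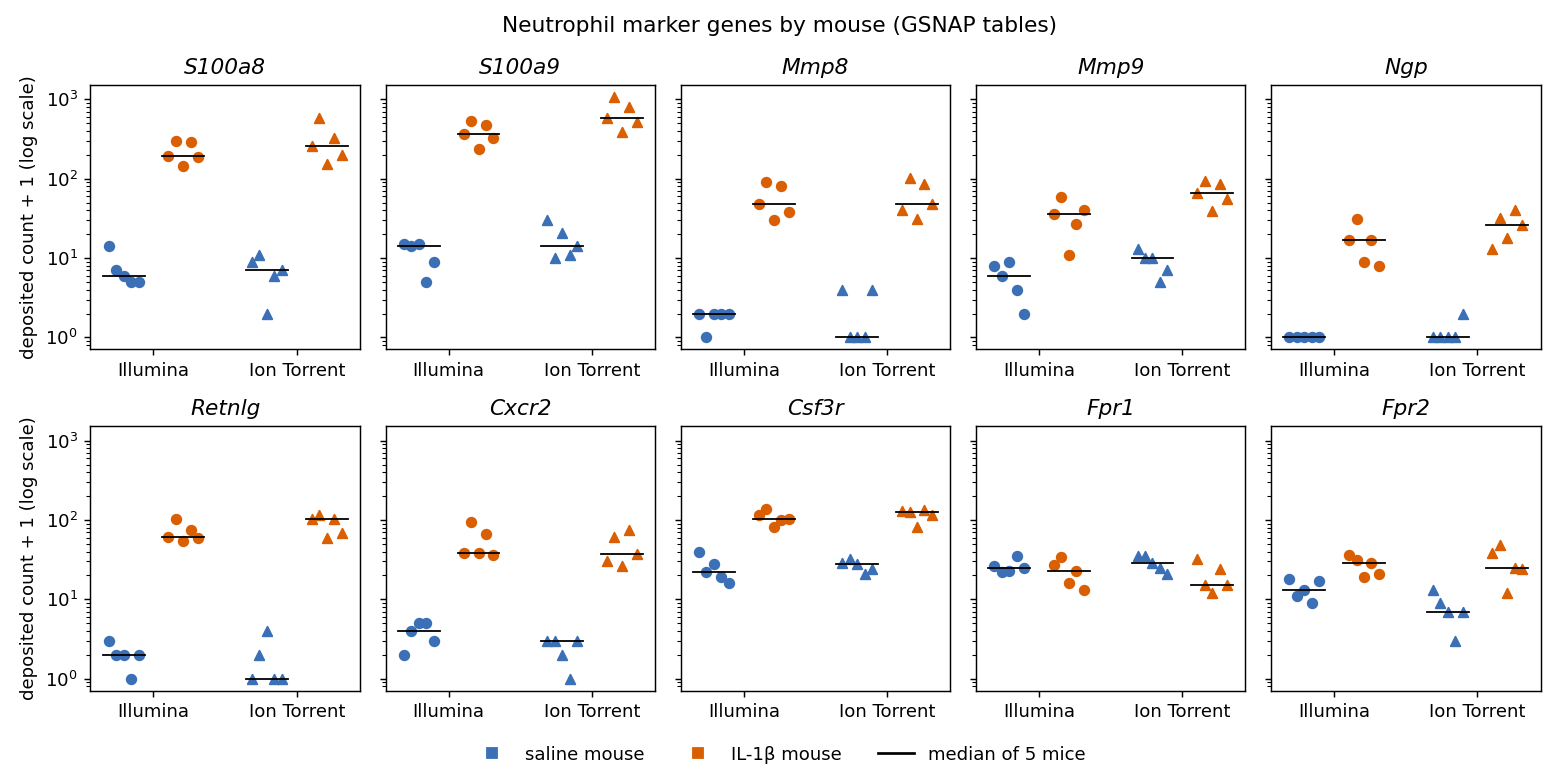
Deposited counts (plus 1, log scale) of the 10 genes in each mouse in the GSNAP tables, untreated mice in blue and IL-1β mice in orange, with Illumina libraries as circles, Ion Torrent libraries as triangles and the median of 5 mice as a bar. The groups are apart for 9 genes in the Illumina panel columns, and overlap for Fpr1 on both platforms and for Fpr2 on Ion Torrent.

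S100a8 and S100a9 gave the largest counts of the 10 genes in the treated livers. Both lie on chromosome 3 (NCBIM37, the build named mm9), S100a8 at 90472993 to 90473956 on the forward strand and S100a9 at 90496554 to 90499643 on the reverse strand, 22597 bases apart. In the Illumina GSNAP table, the 5 treated mice in the order given above had 193, 300, 144, 292 and 186 reads of S100a8. The untreated mice had 13, 6, 5, 4 and 4. Every treated library was far above every untreated library, and mouse UNT_9574, with 13, was the highest untreated one. S100a8 was 38.6-fold higher (log2 fold change 5.27 ± 0.31 SE, n = 5 and 5, edgeR adjusted p = 1.09e-08), and 36.3- to 68-fold over the 6 tables.

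S100a9 had 365, 526, 239, 475 and 330 reads in the treated mice. It had 14, 13, 14, 4 and 8 in the untreated mice. The order of the treated mice was the one seen for S100a8, with ILB_9578 highest and ILB_9579 lowest. The fold was 40.7 (log2 fold change 5.35 ± 0.28 SE, edgeR adjusted p = 4.33e-09), and it moved less between tables than that of S100a8, from 39.1 to 45.6.

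The ratio of S100a9 to S100a8 reads was computed within each library because both proteins work as a pair. In the Illumina GSNAP table it was 1.63 to 1.89 in treated mice, with a median of 1.75, and 1 to 2.64 in untreated mice, with a median of 1.89. The ratios of the groups overlapped in all 6 tables. The mean log2 ratios differed by -0.33 to 0.19 between treated and untreated mice, and the difference passed the test in no table (exact permutation test, two-sided, adjusted p 0.643 to 0.976 over 12 tests). The untreated ratios rest on 4 to 14 reads per gene and library in that table, so a shift in the ratio would be hard to see at this depth. Together the pair made up 59.1% to 65.3% of the reads of the 10 genes in treated mice and 10.5% to 23.8% in untreated mice. The Ion Torrent GSNAP shares were 65.2% to 73.9% and 18.3% to 28.9%.

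The promoters of this pair are shown because the genes are neighbors that rose by a like fold. Each sequence holds the 250 bases before the start of transcription in RefSeq on GRCm38.p6, a later build than that of the counts, read in the direction of the gene. Capitals mark matches to 3 of the motifs searched on both strands: AGGAAGT for PU.1, TTGCNNAA for C/EBP and TATAAA for the TATA box. PU.1 and C/EBP are transcription factors of the myeloid lineage. The lines give chr3:90668821-90669070 (forward strand) and chr3:90695722-90695971 (reverse strand).
S100a8: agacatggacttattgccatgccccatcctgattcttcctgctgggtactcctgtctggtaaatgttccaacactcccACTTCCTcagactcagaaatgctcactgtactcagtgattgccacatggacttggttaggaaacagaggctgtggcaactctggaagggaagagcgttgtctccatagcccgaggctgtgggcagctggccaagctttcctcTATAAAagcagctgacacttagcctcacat
S100a9: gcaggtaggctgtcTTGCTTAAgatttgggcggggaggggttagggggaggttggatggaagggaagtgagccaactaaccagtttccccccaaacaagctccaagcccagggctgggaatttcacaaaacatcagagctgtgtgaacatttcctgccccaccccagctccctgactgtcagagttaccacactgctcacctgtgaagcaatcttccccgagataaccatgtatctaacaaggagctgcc

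The S100a8 window held a PU.1 match on its reverse strand at -172 to -166 and a TATA box at -30 to -25 from the start. The S100a9 window held a C/EBP match at -236 to -229. A window was found for 9 of the 10 genes, with Mmp9 missing from the table. Of these 9, PU.1 matched in 2 (S100a8 and Mmp8), C/EBP in 4 (S100a9, Mmp8, Ngp and Retnlg), the TATA box in 3 (S100a8, Fpr1 and Fpr2) and the kappa-B consensus in 0. Among all 32851 windows of the same length, 7.69% held the PU.1 letters, 9.56% the C/EBP letters, 12.4% the TATA box and 3.9% the kappa-B consensus. The windows of Cxcr2 and Csf3r held none of these motifs. A match describes the letters and is not a measured binding site.

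The granule proteases differed from each other in their untreated level. Mmp8 (chromosome 9, 7558429 to 7568486, forward strand) encodes neutrophil collagenase, stored in the secondary granules. It had 47, 90, 29, 79 and 37 reads in treated mice against 1, 0, 1, 1 and 1 in untreated mice. The groups were far apart, and the untreated values are single reads, so that the fold is loosely fixed. It was 68.3-fold with a 95% confidence interval of 31.9 to 146 (log2 fold change 6.09 ± 0.51 SE, edgeR adjusted p = 3.47e-07). Without mouse UNT_9584 the fold went from 50.4 to 77.1 with Ion Torrent and GSNAP and from 45.3 to 81.8 with Ion Torrent and STAR.

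Mmp9 (chromosome 2, 164766280 to 164781350, forward strand) encodes gelatinase B, held in the tertiary granules and also made by other cells. Treated mice had 35, 58, 10, 26 and 39 reads and untreated mice 7, 5, 8, 3 and 1. The lowest treated mouse, ILB_9579 with 10, was close to the highest untreated one, UNT_9576 with 8. The change was 7.73-fold (log2 fold change 2.95 ± 0.47 SE, edgeR adjusted p = 0.000116). In the Ion Torrent GSNAP table the gap was wider, with 38 to 93 reads against 4 to 12, and over the 6 tables the fold was 7.17 to 9.18.

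Ngp (chromosome 9, 110322254 to 110325514, forward strand) encodes neutrophilic granule protein, a cathelicidin-related protein of the secondary granules. It had 16, 30, 8, 16 and 7 reads in the treated mice and 0 in each of the 5 untreated mice. Against a floor of 3 reads over the untreated group, Ngp was at least 26.6-fold higher (edgeR adjusted p = 0.000115). Over the other tables with no untreated read, the bounds were at least 28.3-fold (Illumina STAR), at least 26.2-fold (Illumina STAR + Bowtie2) and at least 30.2-fold (Ion Torrent STAR). The Ion Torrent GSNAP table held 124 treated reads against 1 untreated read, in mouse UNT_9584, a ratio of 128 with a 95% counting interval of 22.5 to 5087. Leaving out that mouse moved the fitted fold 2.52 times there and 2.53 times in the Ion Torrent STAR + Bowtie2 table. Counting intervals and floors cover counting error only.

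Retnlg (chromosome 16, 48872721 to 48874611, forward strand) encodes resistin-like gamma, a small secreted protein found in myeloid cells. Its treated counts were 60, 102, 53, 74 and 58, and its untreated counts 2, 1, 1, 0 and 1. This was a change of 69.3-fold (95% confidence interval 39.9 to 120, edgeR adjusted p = 1.51e-08), and over the tables of 50.8- to 106-fold. The upper end rests on few untreated reads, since without mouse UNT_9576 the fold in the Ion Torrent GSNAP table was 255 in place of 106. Its closest other transcript, Retnla, aligned over 98.4% of its length at 82.8% identity and held at most 4 reads in any library.

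Cxcr2 (chromosome 1, 74200563 to 74207812, forward strand) encodes the receptor through which neutrophils follow CXC chemokines. The treated mice had 37, 93, 37, 65 and 35 reads and the untreated mice 1, 3, 4, 4 and 2. No treated library came near an untreated one. Cxcr2 was 20.6-fold higher (log2 fold change 4.36 ± 0.41 SE, edgeR adjusted p = 1.04e-06), and 17.9- to 42.6-fold over the 6 tables.

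Csf3r (chromosome 4, 125701794 to 125722219, forward strand) encodes the receptor of granulocyte colony-stimulating factor. Its counts were 114, 136, 80, 98 and 103 after IL-1β and 38, 21, 27, 18 and 15 without. The untreated livers thus held more Csf3r reads than reads of any other gene of the 10 except Fpr1, and the groups did not overlap. The change was 5.03-fold (log2 fold change 2.33 ± 0.22 SE, edgeR adjusted p = 9.84e-07). It was 4.82- to 5.76-fold over the tables, among the narrowest ranges of the 10 genes.

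Fpr1 and Fpr2, receptors by which neutrophils sense formylated peptides of bacteria and mitochondria, lie 3883 bases apart on chromosome 17. Fpr1 is at 18013435 to 18020904 on the reverse strand and Fpr2 at 18024788 to 18030916 on the forward strand. Fpr1 had 26, 33, 15, 22 and 12 reads in treated mice and 25, 21, 22, 34 and 24 in untreated mice. The groups overlapped, and the log2 fold change was -0.055 ± 0.26 SE with a 95% confidence interval of -0.62 to 0.51 (edgeR adjusted p = 0.903). A change in Fpr1 of the size seen in Csf3r lies outside that interval. Over the 6 tables the log2 fold change of Fpr1 was -0.59 to 0.091, with adjusted p 0.112 to 0.903, and without mouse ILB_9577 Fpr1 was called lower with Ion Torrent and STAR (-0.78, adjusted p = 0.0459). In the Ion Torrent GSNAP table the treated mice had 31, 14, 11, 23 and 14 reads and the untreated mice 34, 34, 28, 24 and 20, again with overlap (log2 fold change -0.44 ± 0.28 SE, adjusted p = 0.225).

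Fpr2 had 35, 30, 18, 28 and 20 reads in treated mice and 17, 10, 12, 8 and 16 in untreated mice. The lowest treated mouse lay 1 read above the highest untreated mouse. Fpr2 rose 2.32-fold (log2 fold change 1.22 ± 0.26 SE, edgeR adjusted p = 0.00142), the smallest rise among the 9 genes called in that table. With Ion Torrent reads aligned by GSNAP, the counts were 37, 47, 11, 24 and 23 against 12, 8, 6, 2 and 6, with overlap through the treated mouse ILB_9579, and the rise was 4.57-fold (adjusted p = 0.000462). The closest transcript of another gene to Fpr2 is Fpr3, at 87.4% identity over 99.8% of its length. Fpr3 was listed with at most 1 read in any library of the 6 tables, and how the counting shared reads between these copies was not tested. Fpr1 is more distant from Fpr2, with 70% identity over 70.7% of its length.

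The 2 receptor genes moved apart within the same libraries. The ratio of Fpr2 to Fpr1 reads (0.5 added to each) was 0.91 to 1.64 in treated and 0.246 to 0.686 in untreated mice in the Illumina GSNAP table, without overlap. The log2 ratio was higher in treated mice by 1.32 there, by 1.83 with STAR and by 1.20 with STAR + Bowtie2. The differences in the Ion Torrent tables were 2.66, 3.21 and 2.55. In 5 tables the groups did not overlap (exact permutation test, 5 against 5 mice, two-sided, p = 0.00794, the smallest this design allows, adjusted p = 0.019 over 12 tests). In the Illumina STAR + Bowtie2 table the ratios overlapped (exact permutation p = 0.0159, adjusted p = 0.0317), and without mouse ILB_9583 the adjusted p there was 0.0635.

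**Figure D2:**
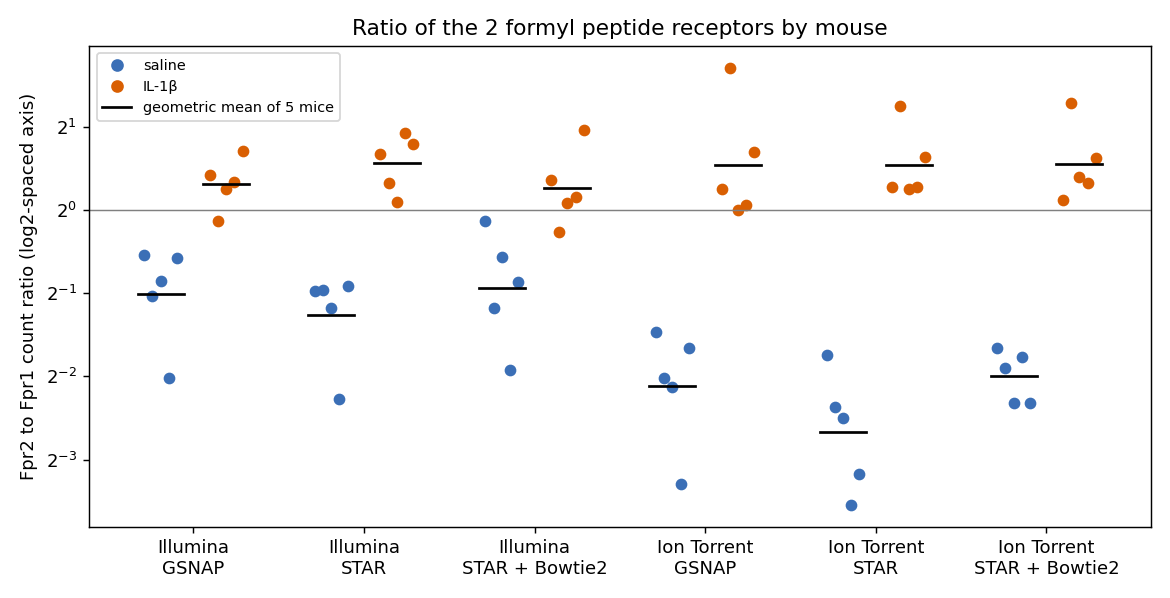
Ratio of Fpr2 to Fpr1 reads (0.5 added to each count, log2-spaced axis) per mouse in the 6 tables, untreated mice in blue, IL-1β mice in orange, with the geometric mean of 5 mice as a bar. Treated mice lie above untreated mice in 5 tables, and the groups overlap with Illumina STAR + Bowtie2.

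The promoter windows of these neighbors are printed as for the first pair, since 1 of them was called higher and the other was not. They are chr17:17883940-17884189 (reverse strand) for Fpr1 and chr17:17887574-17887823 (forward strand) for Fpr2, both on GRCm38.p6.
Fpr1: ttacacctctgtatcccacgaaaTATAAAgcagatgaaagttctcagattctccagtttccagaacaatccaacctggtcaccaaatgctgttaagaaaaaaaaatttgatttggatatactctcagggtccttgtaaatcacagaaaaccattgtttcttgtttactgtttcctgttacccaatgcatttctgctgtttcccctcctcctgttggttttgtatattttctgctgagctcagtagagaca
Fpr2: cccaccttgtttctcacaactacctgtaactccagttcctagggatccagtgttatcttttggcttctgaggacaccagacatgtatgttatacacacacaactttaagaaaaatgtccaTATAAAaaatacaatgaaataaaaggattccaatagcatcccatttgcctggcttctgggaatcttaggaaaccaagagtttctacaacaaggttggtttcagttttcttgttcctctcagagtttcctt

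Each of these windows held a TATAAA match, at -227 to -222 in Fpr1 and at -130 to -125 in Fpr2, and no match to the other motifs searched.

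**Figure D3:**
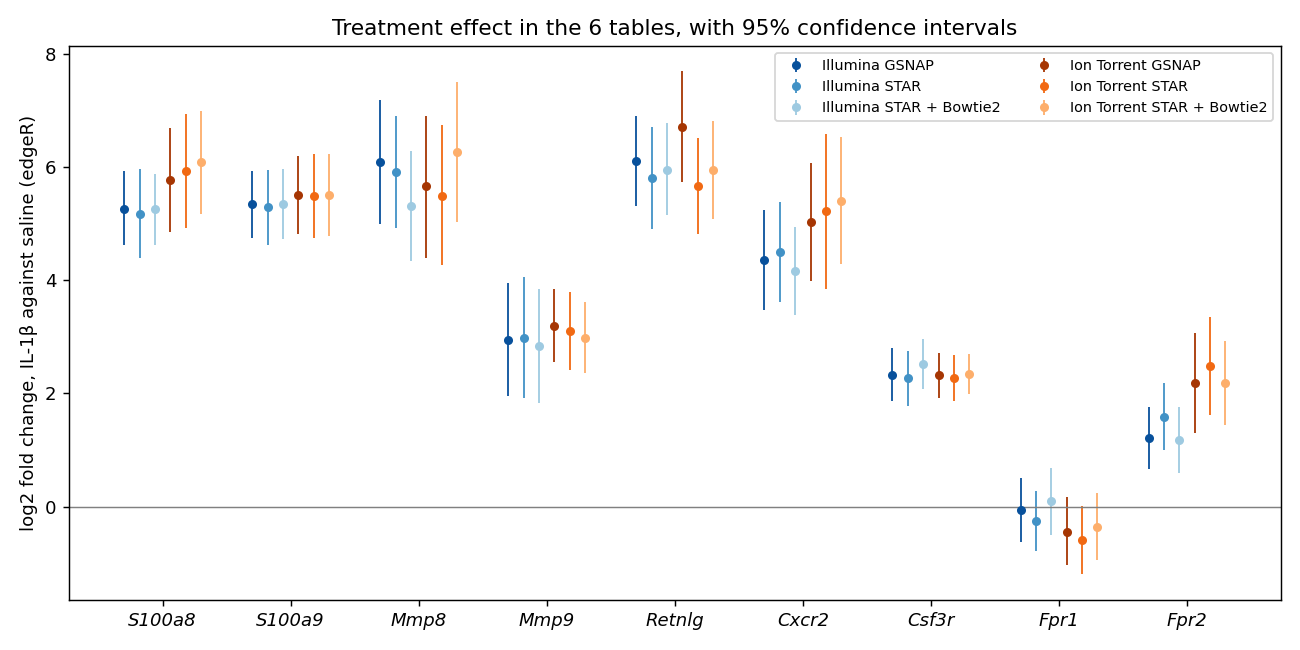
Log2 fold change of IL-1β against untreated mice for 9 of the 10 genes in the 6 tables (edgeR, points with 95% confidence intervals, Illumina in blue and Ion Torrent in orange). Ngp is left out because untreated libraries held 0 reads in 4 tables, and Fpr1 is the only gene plotted whose intervals include 0.

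On a scale that allows genes to be compared, reads per 1000000 counted reads (CPM) divided by the kilobases of exon, the order of the genes changed with treatment. In treated mice of the Illumina GSNAP table the level of S100a9 was 65.9 ± 19.8 (SD, n = 5) and that of S100a8 50.6 ± 15.9. These first 2 overlapped in range, 40.6 to 89.9 against 32.5 to 68.3. Retnlg followed at 10.2 ± 2.94, below all S100a8 values, and Csf3r at 2.28 ± 0.448, below all Retnlg values. The levels of Mmp8 (2.05 ± 0.976), Fpr2 (1.8 ± 0.486), Cxcr2 (1.56 ± 0.749), Fpr1 (1.45 ± 0.57), Ngp (1.13 ± 0.677) and Mmp9 (0.844 ± 0.444) came next, and each overlapped its neighbor in that order, as Csf3r overlapped Mmp8.

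In untreated mice the level of S100a9 was 1.74 ± 0.733 on the same scale, followed by Fpr1 at 1.63 ± 0.337, S100a8 at 1.4 ± 0.841 and Fpr2 at 0.835 ± 0.258. Each of these 4 overlapped the next in order. Csf3r came next at 0.494 ± 0.191, overlapping Fpr2, and Retnlg (0.141 ± 0.101), Mmp9 (0.116 ± 0.0694), Cxcr2 (0.0789 ± 0.0365) and Mmp8 (0.028 ± 0.0157) were lower, with Ngp at 0. Fpr1 was the second of the 10 genes in untreated mice in all 6 tables. In treated mice it was eighth with Illumina reads aligned by GSNAP or STAR + Bowtie2, ninth with STAR on both platforms, and last in the other 2 Ion Torrent tables.

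The mice of the treated group differed from each other in their summed reads. Summed over the 10 genes, the CPM in the Illumina GSNAP table was 82.1, 125, 56.1, 105 and 73.4 in the treated mice and 10.2, 6.85, 8.02, 6.52 and 6.18 in the untreated mice. The lowest treated sum, in mouse ILB_9579, was well above the highest untreated sum, in mouse UNT_9574. Mouse ILB_9578 was the highest treated mouse for 9 of the 10 genes in that table and mouse ILB_9579 the lowest for 7. The order of the sums, ILB_9578, ILB_9582, ILB_9577, ILB_9583, ILB_9579 from high to low, held in all 6 tables, which share the same livers. S100a8 and S100a9 carried 59.1% to 65.3% of the treated sums in the Illumina GSNAP table, and single genes could differ from this order. With Ion Torrent and STAR, Cxcr2 was highest in mouse ILB_9582, Csf3r was highest in ILB_9577 and Ngp was lowest in ILB_9577. Mouse UNT_9574 had the highest untreated sum in each of the 6 tables. The Ion Torrent GSNAP sums were 88.3, 154, 55, 116 and 75.5 against 8.58, 6.92, 6.29, 4.3 and 5.39.

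Markers of red cells were read beside these sums as a rough measure of blood in the tissue. The 7 red cell genes (globins, Alas2 and others) summed to 135 to 218 CPM in treated and 215 to 295 in untreated mice in the Illumina GSNAP table, and to 181 to 317 and 308 to 385 with Ion Torrent. Alas2, the heme synthesis enzyme of red cell precursors, carried 62.7% of the list's treated reads and 57.4% of its untreated reads in the Illumina table, and 40.9% and 36.3% with Ion Torrent. It was not called (log2 fold change -0.28 ± 0.13 SE, adjusted p = 0.0911). Of the 5 tested, 1 was lower (Hbb-b2, a beta globin, log2 fold change -0.78 ± 0.24 SE, edgeR adjusted p = 0.0145) and none higher. Among all genes tested in the Illumina GSNAP table, 23.9% were called lower and 23.7% higher. Mouse ILB_9578, highest in the neutrophil genes, was lowest in the red cell genes with 135. The red cell sum was no higher in any treated mouse than in the highest untreated mouse, and reads of the globin copies can be split between them by the counting. Neutrophils in the vessels were not measured apart from those in the tissue, and the part of blood in the neutrophil reads was not tested.

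**Figure D4:**
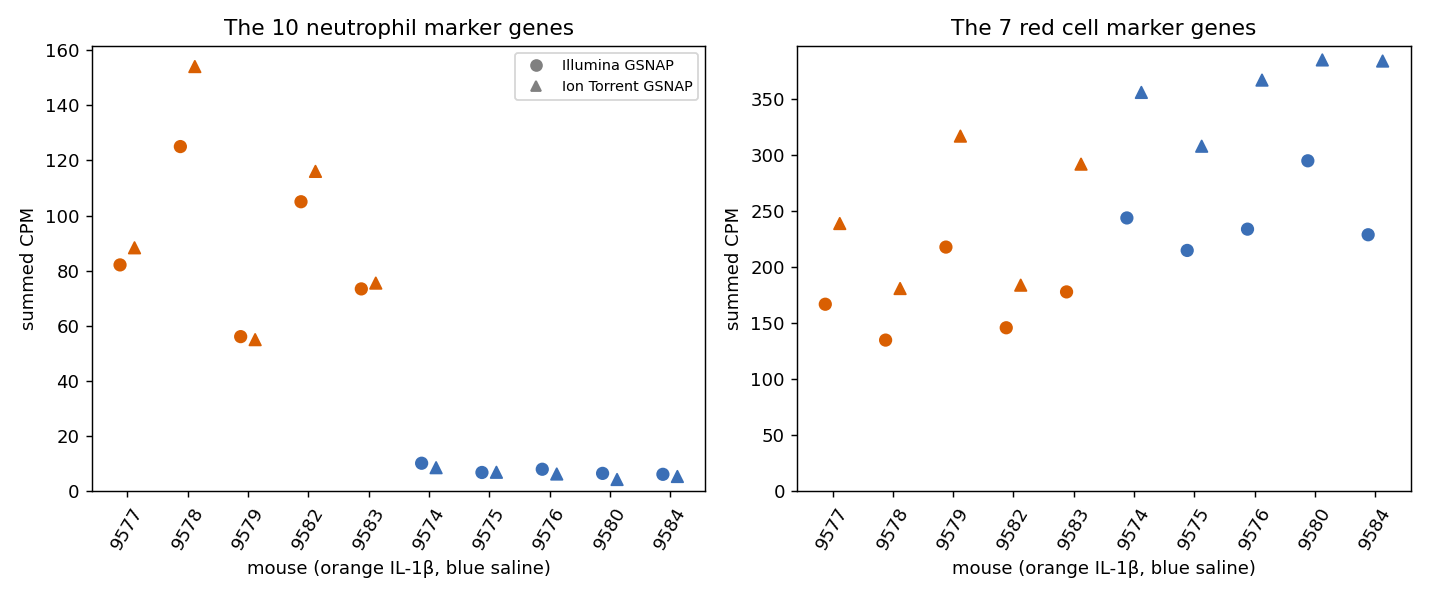
CPM summed over the 10 neutrophil genes (left) and over 7 red cell genes (right) for each mouse, IL-1β in orange and untreated in blue, Illumina GSNAP as circles and Ion Torrent GSNAP as triangles. Every treated mouse lies at 55 or above on the left and every untreated mouse at 10.2 or below, while on the right the treated mice lie mostly below the untreated ones.

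Whether the effect differed between the platforms was asked with a platform-by-treatment term. This edgeR fit took all 20 libraries of each aligner, kept each mouse as a block, and called 0 of the 10 genes with any aligner, where it called 0.0642%, 0.00642% and 0.077% of all genes (GSNAP, STAR, STAR + Bowtie2). Fpr2 was the 1 gene of the 10 with an unadjusted p below 0.05, with each aligner. Its log2 effect was larger in the Ion Torrent data by 0.94 ± 0.37 SE with GSNAP, by 0.92 with STAR and by 0.98 with STAR + Bowtie2 (adjusted p at least 0.586). Unadjusted p values below 0.05 were found in 7.8%, 7% and 7.77% of all genes. For Csf3r the difference lay between -0.18 and 0.0059, and for S100a9 between 0.13 and 0.20. With low untreated counts the intervals were wide: with GSNAP that of Mmp8 ran from -2.30 to 1.34 on the log2 scale and that of Cxcr2 from -0.69 to 1.94.

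Each treated library lay above each untreated library for 9 of the 10 genes in 4 tables, and for 8 in the Illumina STAR + Bowtie2 and Ion Torrent GSNAP tables, where Fpr2 joined Fpr1 in overlapping. For 4 of the genes (Mmp8, Cxcr2, Ngp and Retnlg) this was fixed in advance, since they passed the minimum only through the treated libraries. Of the other 6, all but Fpr1 were separated in the first 4 tables, and all but Fpr1 and Fpr2 in the latter 2. Among all genes tested, 12.5%, 12.1% and 12.8% were separated upward for Illumina and 11.2%, 10.2% and 11.6% for Ion Torrent, in the aligner order above.

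Other genes known from neutrophils were called in part. Of 43 such genes, 29 were tested, and 24 were higher and 1 was lower in the Illumina GSNAP table, and 20 to 24 were higher and 1 lower over the 6 tables. Of the 24, 7 (Asprv1, Cd177, Chil1, Clec4e, Il1r2, Pglyrp1 and Trem1) passed the minimum only through treated libraries in every table where they passed, and so had to be higher to be tested. Of the other 22 genes tested, 17 were higher, 1 was lower and 4 were not called. The share of all tested genes called higher was 23.7% with Illumina and GSNAP, and 20.3% to 23.7% over the 6 tables. With Illumina and GSNAP, 23.9% of all tested genes were called lower. Whether this list differed from these shares was not tested. Ltf, among the 17, varied between tables. Its groups held 31 against 0 reads with Illumina GSNAP. With Ion Torrent GSNAP they held 224 against 148, and with Illumina STAR + Bowtie2 1742 against 1622, both with overlap. The median log2 fold change of those tested was 2.98 in the Illumina GSNAP table, or 2.68 with 3 genes that had no untreated read at their lower bound. The most abundant of them were Lcn2 and Lrg1, which hepatocytes also secrete in inflammation, Lyz2, a lysozyme of neutrophils and macrophages, and G0s2, which liver cells express too. Lcn2 rose by 9.79 ± 0.24 SE and Lrg1 by 2.68 ± 0.27 SE on the log2 scale (edgeR adjusted p = 2.63e-12 and 1.87e-06). Lyz2 was not called (-0.12 ± 0.20 SE, adjusted p = 0.659), and G0s2 fell by 2.10 (SE 0.39, adjusted p = 0.000436).

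For 3 further genes, chosen after their values were seen, all treated libraries were above all untreated ones. Itgam, the alpha chain of Mac-1, had 116, 149, 76, 85 and 69 reads in treated and 14, 13, 9, 17 and 7 in untreated mice. Il1r2, the decoy receptor of IL-1, had 45, 70, 29, 64 and 35 against a single read in mouse UNT_9580, a ratio of 252 with a 95% counting interval of 44.7 to 9975. Cd177, a neutrophil surface protein, had 26, 17, 9, 28 and 15 against 0, at least 32.8-fold higher.

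Some markers that define neutrophils were close to the limit of detection. Ly6g, the antigen of the antibody used to sort mouse neutrophils, had 3, 0, 0, 2 and 2 reads in treated and 0 in all untreated mice in the Illumina GSNAP table. The Ion Torrent GSNAP counts were 3, 1, 2, 4 and 2 against 2, 6, 6, 6 and 8. In sum over the groups, the treated mice held more Ly6g reads in 4 tables (3 to 7 against 0) and fewer in the Illumina STAR + Bowtie2 table (12 against 19) and the Ion Torrent GSNAP table (12 against 28), so that the direction followed neither platform nor aligner at counts below the minimum for testing. Cxcr1, the sister receptor of Cxcr2, had 3, 5, 0, 3 and 1 reads against 0, 1, 0, 0 and 1. Of 8 genes of primary granules and neutrophil progenitors, 2 were tested. Mpo, the main primary granule enzyme, had 2 reads in treated mouse ILB_9577 and none elsewhere in the Illumina GSNAP table. Elane had 0 reads in treated and 3 in untreated mice. Prtn3 was not called (log2 fold change -0.34 ± 0.65 SE, adjusted p = 0.716), and Cebpe, a transcription factor of late granulocyte maturation, fell by 1.65 (SE 0.28, adjusted p = 0.000203), from 20 to 56 reads to 9 to 14.

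Chemokines that bind CXCR2 rose unevenly between mice. Cxcl1 had 296, 1963, 770, 179 and 155 reads in the treated and 255, 64, 150, 55 and 62 in the untreated mice, with overlap (log2 fold change 2.71 ± 0.66 SE, edgeR adjusted p = 0.00359). Mouse ILB_9578, with the most Cxcl1, also had the most reads of the neutrophil genes, but mouse ILB_9579, second in Cxcl1, had the fewest. Cxcl5, which passed the minimum only through the treated libraries, had 46, 33, 64, 34 and 25 reads against 1 read over the untreated group, a ratio of 209 with a 95% counting interval of 37.1 to 8299. Cxcl2 was not called (16 against 9 reads over the groups, adjusted p = 0.262). Cxcl3, Ppbp and Csf3 did not pass the minimum. Csf3, the ligand of CSF3R, had 1 read in all 10 Illumina GSNAP libraries.

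All 4 genes listed as ligands of the formyl peptide receptor FPR2 were called higher in the Illumina GSNAP table, and 3 to 4 over the 6 tables. Among all genes tested, 23.7% were called higher in that table and 20.3% to 23.7% over the 6 tables. Saa1 and Saa2, acute-phase apolipoproteins that hepatocytes secrete, rose by 6.95 ± 0.33 SE and 8.65 ± 0.28 SE on the log2 scale (edgeR adjusted p = 2.24e-09 and 2.85e-11), and as near copies of each other they may share reads. Saa3 rose by 9.50 ± 0.17 SE (adjusted p = 4.33e-14). Anxa1, a ligand that restrains neutrophils, rose by 0.65 ± 0.22 SE (adjusted p = 0.025).

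Of 7 endothelial genes of leukocyte adhesion, 5 were higher and none lower in every table. Icam1, the ligand of the beta-2 integrins of neutrophils, went from 89 to 187 reads in untreated to 541 to 700 in treated mice (log2 fold change 2.23 ± 0.17 SE, edgeR adjusted p = 1.32e-07). Vcam1 rose by 1.37 ± 0.17 SE and Cdh5, the cadherin of endothelial junctions, by 0.82 ± 0.17 SE (adjusted p = 1.38e-05 and 0.00126). Pecam1, a general endothelial marker, was not called (-0.23 ± 0.15 SE, adjusted p = 0.234). Mouse ILB_9579, lowest in the neutrophil genes, was highest in Icam1 with 700 reads.

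Markers of other cell types moved in several directions, and their part in the counts of the 10 genes was not tested. Among all genes tested with Illumina and GSNAP, edgeR called 23.7% higher and 23.9% lower. Calls were thus common, at 47.5% of all genes in either direction. Whether the lists of other cell types, here and in the next paragraph, differed from these shares was not tested. Of 13 Kupffer cell and macrophage markers, 1 was higher and 4 were lower in the Illumina GSNAP table, and their summed level was 120 to 285 CPM in treated and 187 to 383 in untreated mice. Among the 4 most abundant, Clec4f, the Kupffer cell lectin, fell by 0.61 (SE 0.18, edgeR adjusted p = 0.012), Cd5l by 0.51 (adjusted p = 0.0484) and Csf1r by 0.60 (SE 0.21, adjusted p = 0.0252), while C1qb, a complement subunit, was not called (log2 fold change 0.11, adjusted p = 0.687). The other called genes were Vsig4, which fell by 0.95 (adjusted p = 0.00407), and Marco, a scavenger receptor, which rose by 2.19 ± 0.39 SE (adjusted p = 0.000354), the largest change of the list. The remaining 7, with C1qa, C1qc, Cd163 and Cd68 among them, were not called, at -0.70 to 0.32. Of 9 monocyte markers, 8 were tested and 6 were higher, with Cd14, which hepatocytes also make in inflammation, up by 7.03 ± 0.23 SE (adjusted p = 2.85e-11). Chil3 passed the minimum only through the treated libraries and so had to be higher to be tested. Of the other 7, 5 were higher. Ccr2 (0.48, edgeR adjusted p = 0.116) and Cx3cr1 (-0.75, adjusted p = 0.068) were not called. Ccr2 was called higher in the Ion Torrent tables, and Cx3cr1 lower with STAR on both platforms and with Ion Torrent STAR + Bowtie2. The summed level of the monocyte markers was carried by Fn1, which hepatocytes secrete, and was 2270 to 2680 against 1230 to 1610 CPM.

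Of 6 pan-leukocyte genes, 2 were higher (Cd53 and Coro1a, by 0.91 and 0.98 on the log2 scale, edgeR adjusted p = 0.000454 and 0.00243). Laptm5, the most abundant, was not called (0.11 ± 0.21 SE, adjusted p = 0.703). Ptprc, which encodes CD45 and marks all leukocytes, had 97, 106, 48, 81 and 45 reads in treated and 120, 92, 79, 81 and 83 in untreated mice (log2 fold change -0.10 ± 0.22 SE, edgeR adjusted p = 0.751). The summed level of the 6 was 29.4 to 50.1 CPM in treated and 25 to 49.4 in untreated mice, overlapping. Of 10 lymphocyte markers, 6 were tested, and 3 were lower and none higher, at 1.6 to 2.92 against 2.49 to 6.67 CPM in sum. None of 9 eosinophil, basophil and mast cell markers passed the minimum, and they summed to at most 0.446 CPM in any Illumina GSNAP library. Of 6 platelet markers, 2 were tested and 1 was higher (Pf4, log2 fold change 1.42 ± 0.50 SE, adjusted p = 0.0285), with sums of 1.7 to 4.35 and 2.51 to 3.92. The other, Itga2b, was not called (-0.22 ± 0.24 SE, edgeR adjusted p = 0.469). It was called lower with Ion Torrent and GSNAP (-0.58, adjusted p = 0.0454) and STAR + Bowtie2 (-0.71, adjusted p = 0.0145). Of 7 hepatocyte genes, 2 were higher, 2 were lower and 3 were not called. Apoa1 (log2 fold change -0.31, edgeR adjusted p = 0.233) and Ttr (-0.32, adjusted p = 0.0693) were among those not called. Ttr was called lower in each Ion Torrent table (edgeR adjusted p 0.013 to 0.0149), so that 2 to 3 were lower over the 6 tables. Tat rose by 1.51 and Hnf4a by 1.04 (edgeR adjusted p = 7.57e-05 and 5.33e-07). Cps1 fell by 0.89 (adjusted p = 6.79e-05) and albumin (Alb) by 0.53 (SE 0.13, adjusted p = 0.00345).

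**Figure D5:**
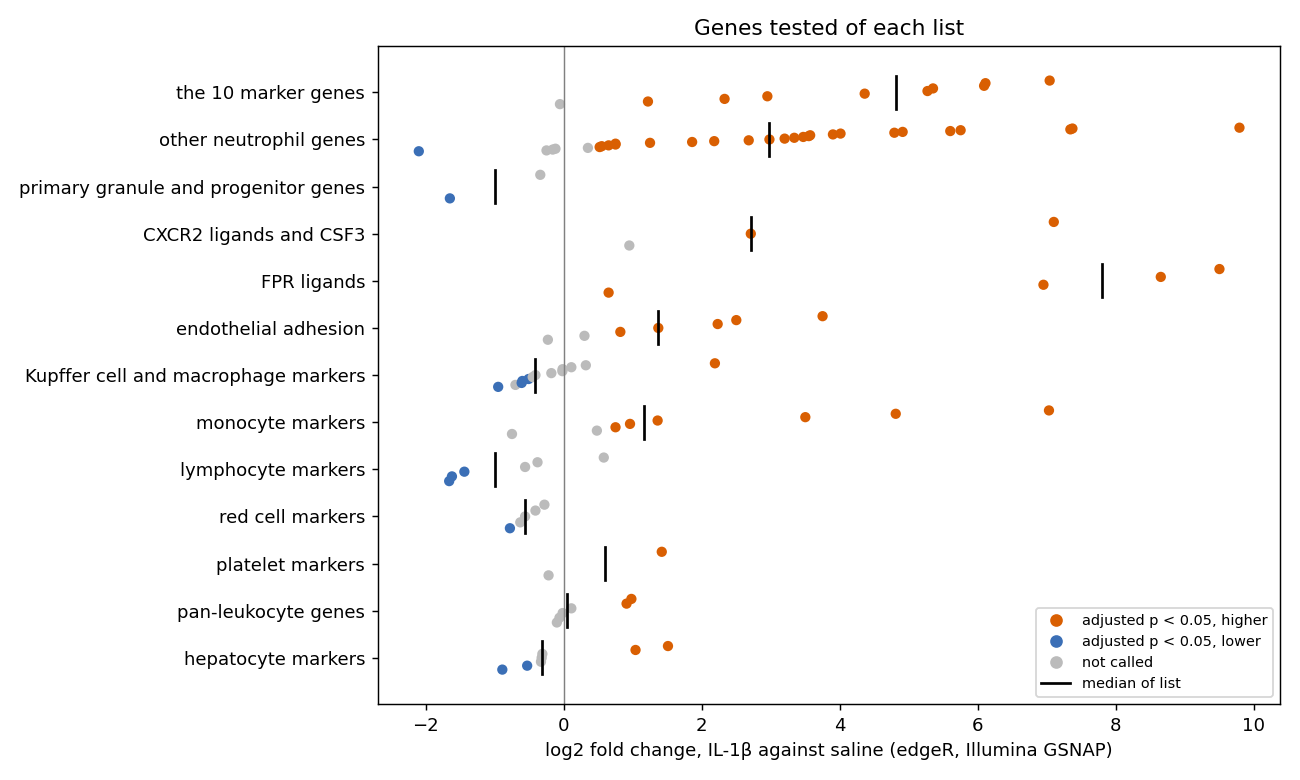
Log2 fold change, IL-1β against untreated mice, of each tested gene in the Illumina GSNAP table (edgeR), by gene list, in orange where higher and in blue where lower at an adjusted p below 0.05, in grey where not called, with the list median as a black bar. The 10 genes have a median of 4.82, with Fpr1 alone in grey, and genes with no untreated read are drawn at a fitted value that depends on the method.

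The genes whose pattern over the 10 Illumina GSNAP libraries lay closest to the average of the 7 of the 10 genes with a mean of at least 20 reads (S100a8, S100a9, Mmp8, Cxcr2, Csf3r, Retnlg and Fpr1) were sought among 11381 genes with a mean of at least 20 reads. The measure was the root mean square distance of log2 CPM, centred on the untreated mean. Fpr1, which was not called, lowers this average and lay at a distance of 2.82 from it. The other 6 averaged genes lay at 0.47 (Cxcr2) to 1.10 (Csf3r). The nearest genes outside the 10 were Alpk1 (0.31), D17H6S56E-5 (0.34), Serpina3f (0.35), Ccl2 (0.42), Gbp2 (0.42) and Apcs (0.44). They lay closer to the average than any of the genes averaged, so the distance describes likeness to that average and not to a single neutrophil gene. Ccl2, a monocyte chemokine, went from 2 to 6 reads to 42 to 153, and Apcs, the serum amyloid P component made by hepatocytes, from 752 to 1066 reads to 7406 to 10320. In the Ion Torrent GSNAP table these 6 ranked 16, 13, 33, 64, 2 and 12 by the same measure.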

How the data were processed

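Libraries were made from liver RNA of 10 mice on both platforms, 20 libraries in all, and the groups were taken from the treatment label. The deposited values are count values per gene, which the authors made by aligning reads to mm9 with GSNAP, STAR 2.5.1b, or STAR followed by Bowtie2 2.2.9 (versions per the submitters' processing notes). With PORT they removed ribosomal and mitochondrial reads, counted the rest over Ensembl gene models and, table by table, thinned all libraries to an equal number of reads on genes. That limits each value to the thinned depth, so treatment groups were compared within a table. Only the platform-by-treatment fit joined tables, those of both platforms for an aligner, and it compared treatment effects, not levels. Whether the counting used strand is not given in the sources used here.

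The 10 genes and all gene lists were chosen with earlier results of these data known. Lists were described by counts and medians, and the genes named from them were among the 4 with the highest mean count in the Illumina GSNAP table or tied to a member by role. Genes outside this rule were named after their values were seen. They were Itgam, Il1r2, Cd177, Ltf, Marco, Vsig4, Coro1a, C1qa, C1qc, Cd163, Cd68, Cx3cr1, Tat and Hnf4a. They also include those listed for passing the minimum only through treated mice. A gene was tested if any table gave it 5 reads or more in 5 of 10 libraries (15578 genes) with edgeR 4.0.16 (quasi-likelihood, TMM) and with an exact rank-sum test, the study's kind of test, with Benjamini-Hochberg adjustment over all of them. Reads per kilobase used the union of exons in the Ensembl models on NCBIM37. In the platform-by-treatment fit the mouse was a block, since both libraries of a mouse come from the same liver by the labels. The correlation of their deviations was 0.199 to 0.721. DESeq2 1.42.0 and limma 3.58.1 were alternatives. The tests were first run on simulated data. R 4.3.3, Python 3.11.15, scipy 1.17.1 and BLAST+ 2.17.0 were used.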

Additional observations from a re-analysis of the deposited data

Results flagged for a closer look

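Single libraries that lay far from the other 4 of their group, by Dixon's test at the 95% level, were sought for the 10 genes in both groups of the GSNAP tables. Of 40 groups of 5 mice, 3 held such a library. Chance alone gives about 1 in 20 for continuous values, a rate that does not apply to tied counts. For Mmp8 and Ngp below, the other 4 mice were tied, so that a single read set the result. The untreated mouse UNT_9574 had 13 reads of S100a8 in the Illumina table, against 4 to 6 in the other untreated mice. The untreated mouse UNT_9575 had 0 reads of Mmp8 in the Illumina table, where the other 4 had 1 each. The untreated mouse UNT_9584 had 1 read of Ngp in the Ion Torrent table, where the other 4 had 0.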

How the results depend on the processing

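The calls held under every alternative run for the genes other than Fpr1: 9 of the 10 were called higher in each table and in all 96 alternatives (DESeq2's size factors, no scaling factor, DESeq2, limma-voom, other minimum counts, each mouse left out), and the 78 alternatives of the rank test, the 39 of the platform-by-treatment term and the 96 of the list counts stayed within 1.5 times their counts. Without a scaling factor the median log2 fold change of all genes was -0.11 to -0.09 over the tables. The platform-by-treatment fit without the mouse as a block also called 0 of the 10 genes. Treated and untreated mice share no number, so no pairing applied between them. Of 960 log2 fold changes of single genes, 954 kept direction and side of the threshold, and the other 6 were of Fpr1. In the Illumina GSNAP table Fpr1 turned from -0.055 to 0.035 without mouse ILB_9579, 0.076 without ILB_9583 and 0.084 without UNT_9580 (range over left-out mice -0.28 to 0.084). In the Illumina STAR + Bowtie2 table it turned from 0.091 to -0.0046 without a scaling factor and to -0.14 without mouse ILB_9578 (range -0.14 to 0.26). In the Ion Torrent STAR table Fpr1 passed the threshold without mouse ILB_9577 (-0.78, edgeR adjusted p = 0.0459). The log2 difference in the S100a9 to S100a8 ratio changed sign in 7 of its alternatives without passing the test. In the Illumina STAR table it was 0.051 with 1 in place of 0.5 added, and over left-out mice it was -0.072 to 0.28 (Illumina GSNAP), -0.45 to 0.30 (Illumina STAR) and -0.68 to 0.30 (Ion Torrent GSNAP). The Fpr2 to Fpr1 difference with Illumina STAR + Bowtie2 was 0.95 to 1.40 over left-out mice and missed the threshold without mouse ILB_9583 (1.02, exact permutation adjusted p = 0.0635). The causes were not tested. Untreated counts of 0 to 4 reads limit the folds of Mmp8, Cxcr2, Ngp and Retnlg, and 5 mice per group allow no exact permutation p below 0.00794.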
